A study of Mus musculus with 6 samples.

Results

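Translation initiation and elongation factors were taken as every gene whose symbol begins with Eif or Eef followed by a digit, without the pseudogene tag -ps, and whose raw counts summed to 60 or more over the 6 libraries. Of 54146 genes in the count files, 64 met this rule. The lowest of them by total was Eif3j2, with 15 to 48 counts per library. Outside the rule lay Eef1a2, the elongation factor 1A form of muscle and neurons, with 1 count in all, and Eif4e1b, Eif2c5 and Eef1akmt4-ece2 at 0 counts in all libraries.

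RNA was sequenced from whole kidneys of mice aged 12 weeks, of strain B6C3F1/J. Of 6 libraries, 3 were labelled KspCre Tfam f/f and 3 were labelled Tfam f/f, so that both groups carry floxed Tfam alleles and the Ksp-Cre transgene is the labelled difference. The Ksp promoter is that of the kidney-specific cadherin gene and drives Cre in tubule epithelium, while other kidney cells keep Tfam, which encodes a factor for packaging and transcribing mitochondrial DNA. No source used here says whether each library is 1 animal or a pool, so p-values measure only how much these 6 libraries vary, and that variation may be technical.

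The targeted gene went against the labels. Tfam stood at 63.1, 63.5 and 61.4 CPM (normalized read counts, relative to library totals scaled by TMM factors) under the KspCre Tfam f/f label, against 30.3, 33.6 and 23.2 CPM under the Tfam f/f label (log2 fold change 1.11, SE 0.14, adjusted p = 0.00107 by edgeR's quasi-likelihood test). The 13 mRNAs encoded by mitochondrial DNA made up 11.0% to 11.1% of gene counts under the KspCre Tfam f/f label, against 2.39% to 5.67% under the Tfam f/f label. The authors also named the count files of the KspCre Tfam f/f label with WT and those of the Tfam f/f label with MV, an abbreviation that no source used here explains. Groups are therefore named by label, and higher or lower describes the KspCre Tfam f/f label relative to the Tfam f/f label, not a known genotype. Depth was 48899266, 48617981 and 30348281 gene counts under the KspCre Tfam f/f label, against 23921849, 34821537 and 19024208 under the Tfam f/f label. The 10 markers of proximal tubule, the most abundant kidney epithelium, summed to 45970 to 48110 CPM under the KspCre Tfam f/f label, against 3614 to 15240 CPM under the Tfam f/f label. In the other direction, 12 macrophage markers summed to 144 to 160 CPM under the KspCre Tfam f/f label, against 205 to 637 CPM under the Tfam f/f label. By the same labels 8 proliferation markers summed to 19.5 to 24.7 CPM (KspCre Tfam f/f), against 108 to 156 CPM (Tfam f/f), and 8 tubular injury markers to 142 to 144 CPM (KspCre Tfam f/f), against 705 to 2623 CPM (Tfam f/f). Sums are weighted to the most abundant markers. Median log2 fold changes of the lists were 1.66 (proximal tubule), -2.04 (macrophage), -2.5 (proliferation) and -4.24 (injury). No macrophage, proliferation or injury marker was at 0 in either group, and the part of these cell differences in the results below was not tested. In whole kidney RNA, fewer cells of a type and less RNA per cell cannot be told apart.

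Translation begins when eIF2 brings the initiator tRNA to the small ribosomal subunit, eIF3 and the eIF1 family hold the complex open for scanning, and the eIF4 proteins load the capped mRNA. The elongation factors eEF1A and eEF2 then deliver aminoacyl-tRNA and move the ribosome along. Both stages have brakes. Kinases of the Eif2ak genes phosphorylate eIF2 alpha and so block its recycling by eIF2B, 4E-binding proteins keep eIF4E from the scaffold eIF4G, and the kinase encoded by Eef2k inactivates eEF2. The kidney tubule spends much of its energy on transport, and these brakes respond to stress and nutrient supply.

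As a group, translation factor transcripts took up a smaller part of the gene counts under the KspCre Tfam f/f label. They made up 1.23%, 1.25% and 1.25% of gene counts there, against 2.23%, 2.03% and 2.43% under the Tfam f/f label. Leaving out the 13 mitochondrial mRNAs, the shares were 1.38%, 1.40% and 1.40% under the KspCre Tfam f/f label, against 2.30%, 2.15% and 2.49% under the Tfam f/f label. The groups did not overlap on either measure. Eef1a1 alone took 0.361%, 0.376% and 0.382% of gene counts under the KspCre Tfam f/f label, against 0.827%, 0.743% and 0.921% under the Tfam f/f label. Shares of gene counts are on the scale of library totals, where the median log2 fold change of all tested genes was -0.46. They are weighted to Eef1a1 and Eef2, neither of which passed the test below. The 12 eIF4 genes went the other way in summed CPM, with 3493 to 3535 (KspCre Tfam f/f label), against 3032 to 3375 (Tfam f/f label).

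All 64 members passed the filter on low counts. By the edgeR quasi-likelihood test with Benjamini-Hochberg adjustment over all 17308 tested genes, at an adjusted p below 0.05, 7 members were higher, 26 were lower and 31 did not pass. Among all tested genes 46.2% were called, 21.3% as higher and 24.9% as lower, while among the members the shares were 10.9% and 40.6%. The median log2 fold change of the members was -0.27, against -0.03 over all tested genes. By level alone, 39 members (60.9%) had all 3 libraries labelled KspCre Tfam f/f below all 3 labelled Tfam f/f, where 32.1% of all tested genes did, and 10 members (15.6%) had them above, where 29.8% did. Without the Eif2ak and Eif4ebp genes, the 57 remaining members held 5 higher, 23 lower and 29 that did not pass. At a fold of 2 or more, 4 members were called lower and 0 higher, where 13.2% and 8.75% of all tested genes were. With library totals in place of TMM factors the median of all tested genes moved to -0.46 and that of the members to -0.71, and no member was called higher, so directions below are relative to the bulk of the transcriptome.

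**Figure D1:**
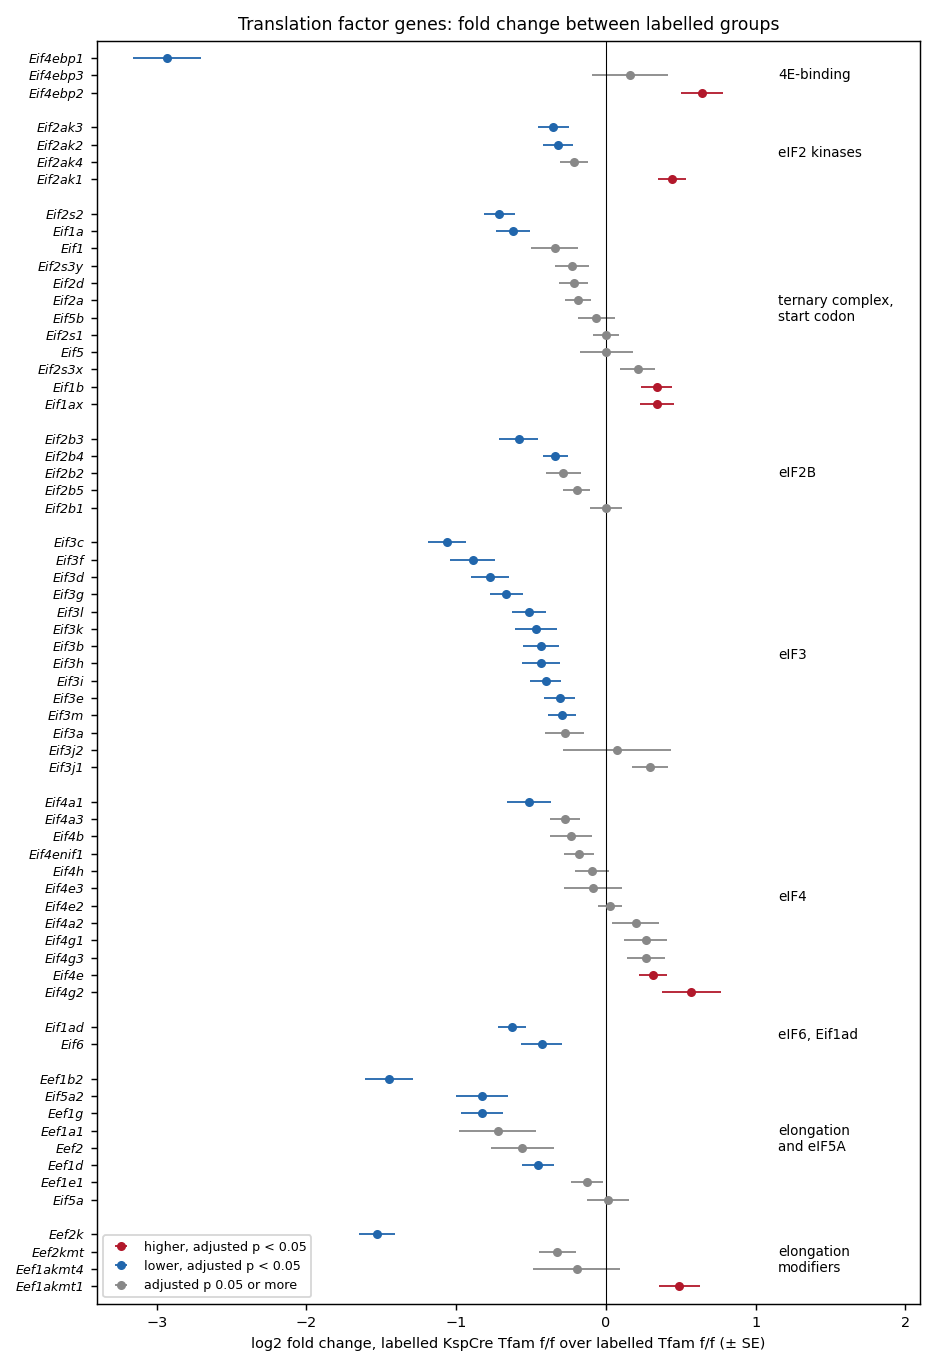
Log2 fold change of each of the 64 members (x axis, libraries labelled KspCre Tfam f/f over those labelled Tfam f/f, bars ± SE), in rows by class, with colours for the edgeR call at adjusted p below 0.05. Most points of the eIF3 and elongation classes lie left of 0, Eif4ebp1 lies farthest left at -2.93, and Eif4ebp2 lies farthest right at 0.64. With library totals all points move left, which puts Eif1ax, Eif1b, Eif2s3x, Eif3j1, Eif3j2, Eif4a2, Eif4e, Eif4e2, Eif4ebp3, Eif4g1, Eif4g3, Eif5 and Eif5a below 0.

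Libraries with the KspCre Tfam f/f label were close to each other, and those labelled Tfam f/f were spread. Of the 26 lower members, 21 had replicate 2 of the Tfam f/f label as the library nearest to the other group, and of the 7 higher members 5 did. Replicate 2 was also the one with the lowest injury and macrophage sums and the highest proximal tubule sum among the libraries labelled Tfam f/f. Whether the members' spread and the cell markers' spread are linked was not tested. When each library was left out in turn, 13 of the 26 lower members were called every time, namely Eef1b2, Eef1g, Eef2k, Eif1a, Eif1ad, Eif2b3, Eif2s2, Eif3c, Eif3d, Eif3f, Eif3g, Eif4ebp1 and Eif5a2, and of the 7 higher members Eif2ak1 and Eif4ebp2 were.

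**Figure D2:**
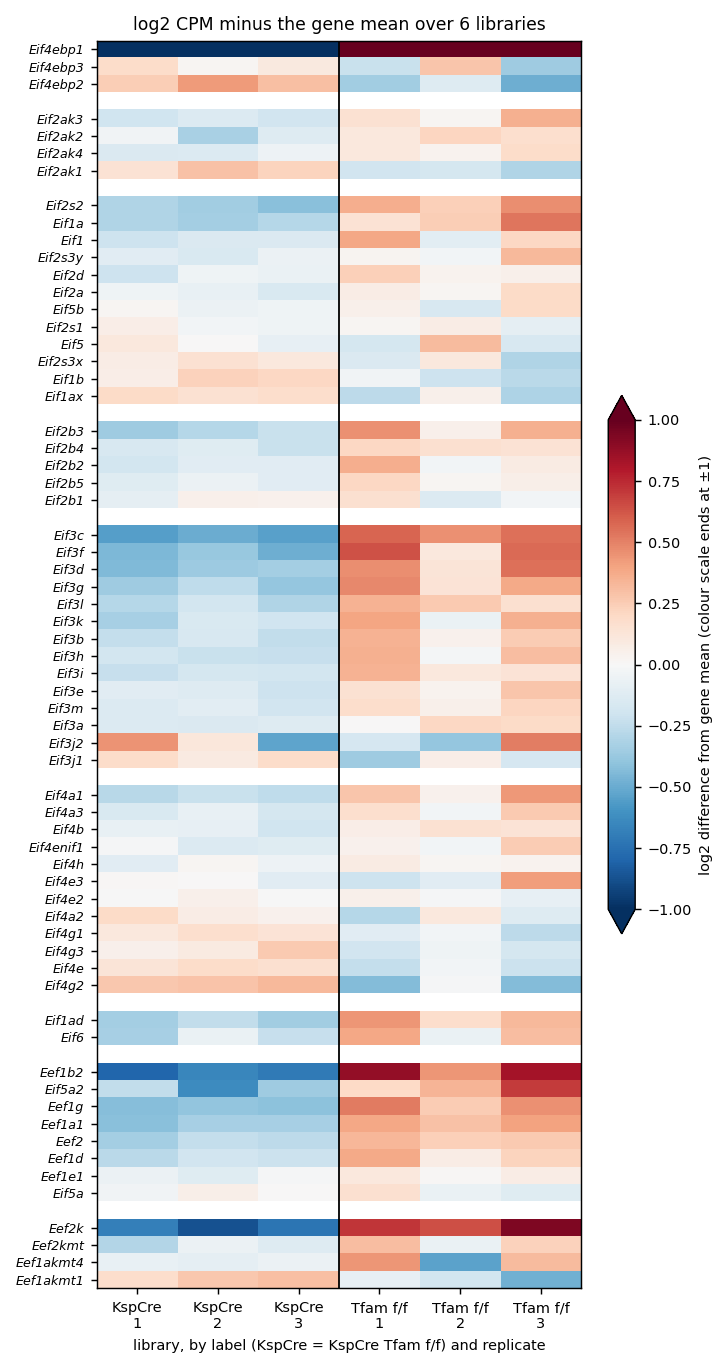
Log2 CPM of each member minus its own mean over 6 libraries, with libraries as columns (3 labelled KspCre Tfam f/f left of the line, 3 labelled Tfam f/f right of it) and members as rows by class. Colours end at ±1. The 3 left columns look alike, and on the right replicate 2 is the nearest to them for 21 of 26 lower members. With library totals the direction turns for Eif1ax, Eif1b, Eif2s3x, Eif3j1, Eif3j2, Eif4a2, Eif4e, Eif4e2, Eif4ebp3, Eif4g1, Eif4g3, Eif5 and Eif5a.

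Promoter sequence was looked at because many members moved together. RefSeq promoter windows on build GRCm38.p6, from 250 bases before an annotated start to 50 after it, matched 50 of the 64 members, with 65 windows. The E-box CACGTG, a palindrome that reads the same on both strands and is bound by MYC and USF family factors, was present for 13 of these 50 members (26.0%), and for 11.3% of 10900 tested genes with a window. Of the members with a window it was present for 2 of 5 higher ones, 5 of 17 lower ones and 6 of 28 that did not pass, so it was seen on both sides. The motif TGATGNAA, the core that ATF4 and C/EBP factors bind, was searched on both strands. It was found for Eef2k and Eif2s3x (4.0% of the members with a window), against 2.85% of the tested genes with a window. The Eef2k match lay in the window of a different annotated start from the one with its E-box. Eif4ebp1 had no matched window, so neither motif was searched for it. The 2 motifs overlapped in 0 of the 65 windows. Matches are descriptions of letters, and base composition of the promoters was not tested. Shown here are the windows from 100 bases before the start to 20 after it for 3 lower members and 1 higher member with an E-box in that stretch, picked as examples, in lower case with the E-box in capitals.
Eef2k (chr7:120842731-120842850, plus strand, E-box at position -31 from the start): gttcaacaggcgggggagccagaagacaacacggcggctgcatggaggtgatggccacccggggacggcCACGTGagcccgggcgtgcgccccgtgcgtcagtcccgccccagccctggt
Eif3f (chr7:108934315-108934434, plus strand, position -68): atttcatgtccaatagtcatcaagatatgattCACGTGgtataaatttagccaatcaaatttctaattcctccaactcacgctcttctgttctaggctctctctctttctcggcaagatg
Eif3k (chr7:28981869-28981988, minus strand, position -44): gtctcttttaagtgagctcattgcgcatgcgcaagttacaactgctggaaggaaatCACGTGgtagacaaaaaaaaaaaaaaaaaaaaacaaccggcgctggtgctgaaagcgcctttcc
Eif1b (chr9:120492506-120492625, plus strand, position -24): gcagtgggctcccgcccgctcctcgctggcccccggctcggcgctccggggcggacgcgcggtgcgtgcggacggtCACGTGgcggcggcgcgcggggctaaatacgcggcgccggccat

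The 4E-binding protein genes Eif4ebp1 and Eif4ebp2 changed in opposite directions. Eif4ebp1 (ENSMUSG00000031490.6, chromosome 8, 27260329 to 27276674 in mm10), which encodes the 4E-BP1 repressor of cap-dependent initiation and is a known ATF4 target, had 7.35, 9.13 and 8.20 CPM under the KspCre Tfam f/f label, against 82.1, 44.7 and 61.4 CPM under the Tfam f/f label. The groups lay far apart. It was 7.62-fold lower (log2 fold change -2.93, SE 0.23, adjusted p = 0.000186), the most of any member. Eif4ebp2 (ENSMUSG00000020091.15, chromosome 10, 61428491 to 61452661), the second repressor of this kind, had 272, 307 and 282 CPM under the KspCre Tfam f/f label, against 180, 210 and 163 CPM under the Tfam f/f label. The groups were again apart, with Eif4ebp2 1.56-fold higher (log2 fold change 0.64, SE 0.14, adjusted p = 0.00882). Eif4ebp3 had 1.46, 1.31 and 1.37 CPM under the KspCre Tfam f/f label, against 1.10, 1.55 and 1.01 CPM under the Tfam f/f label, which overlap (adjusted p = 0.629), and 67.3% of its exon length is shared with another annotated gene on the same strand.

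Per kilobase of exon, the balance between the repressors differed accordingly. Eif4ebp1 made up 6.40%, 7.05% and 6.88% of the summed CPM per kilobase of the 3 Eif4ebp genes under the KspCre Tfam f/f label, against 53.5%, 34.7% and 48.6% under the Tfam f/f label. The mean per kilobase was 3.75 CPM for Eif4ebp1 and 49.6 CPM for Eif4ebp2 under the KspCre Tfam f/f label, against 28.6 and 31.9 CPM under the Tfam f/f label.

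The eIF2 alpha kinases were also split. Eif2ak1 (ENSMUSG00000029613.15, chromosome 5, 143817788 to 143904251), which encodes the heme-regulated kinase HRI that relays mitochondrial stress, had 93.7, 104 and 98.6 CPM under the KspCre Tfam f/f label, against 74.2, 75.1 and 68.9 CPM under the Tfam f/f label. It was 1.36-fold higher (log2 fold change 0.44, SE 0.09, adjusted p = 0.00701), and with library totals its log2 fold change was 0.02. Eif2ak3 (chromosome 6, 70844515 to 70905245), which encodes the endoplasmic reticulum kinase PERK, had 43.0, 44.9 and 43.3 CPM under the KspCre Tfam f/f label, against 54.9, 49.9 and 63.0 CPM under the Tfam f/f label, and was 1.28-fold lower (adjusted p = 0.0264). Eif2ak2, the double-stranded RNA sensor PKR, had 31.2, 25.6 and 29.2 CPM under the KspCre Tfam f/f label, against 34.3, 37.0 and 35.9 CPM under the Tfam f/f label, and was 1.25-fold lower (adjusted p = 0.0345).

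Eif2ak4, which encodes the amino acid sensor GCN2, had 20.7, 20.9 and 22.1 CPM under the KspCre Tfam f/f label, against 24.6, 23.4 and 26.0 CPM under the Tfam f/f label, without overlap but with an adjusted p of 0.0909. HRI transcripts made up 52.6% ± 1.91 of the CPM per kilobase of the 4 kinase genes under the KspCre Tfam f/f label and 39.6% ± 2.55 under the Tfam f/f label (SD, n = 3 each), and PERK transcripts 21.9% ± 0.300 under the KspCre Tfam f/f label and 28.6% ± 2.81 under the Tfam f/f label. The Eif2ak3 call was lost without any one of replicates 1 to 3 of the KspCre Tfam f/f label (adjusted p 0.0802 to 0.104) or replicate 1 of the Tfam f/f label (0.0508). That of Eif2ak2 was lost without any one of replicates 1 to 3 of the KspCre Tfam f/f label (0.054 to 0.155) or replicate 1 or 2 of the Tfam f/f label (0.0613 and 0.0702), and DESeq2 did not call it (adjusted p = 0.0575).

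Among the genes for the ternary complex and start codon selection, the gene for the kinases' target subunit did not pass the test and that for its partner did. Eif2s1, which encodes the eIF2 alpha subunit, had 51.7, 48.5 and 48.0 CPM under the KspCre Tfam f/f label, against 49.9, 52.1 and 46.3 CPM under the Tfam f/f label, which overlap (SE of the log2 fold change 0.09, adjusted p = 0.985). Eif2s2 (ENSMUSG00000074656.12, chromosome 2, 154871410 to 154892935), the beta subunit, had 93.7, 90.8 and 86.7 CPM under the KspCre Tfam f/f label, against 149, 136 and 159 CPM under the Tfam f/f label. These groups lie far apart, and Eif2s2 was 1.64-fold lower (log2 fold change -0.71, SE 0.10, adjusted p = 0.0019). Per kilobase, Eif2s2 made up 57.3% ± 0.436 of the sum of the 2 genes under the KspCre Tfam f/f label and 68.6% ± 2.95 under the Tfam f/f label (SD, n = 3 each).

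The gamma subunit is encoded on both sex chromosomes. Eif2s3x had 67.5, 71.1 and 68.9 CPM under the KspCre Tfam f/f label, against 57.9, 69.0 and 51.9 CPM under the Tfam f/f label (adjusted p = 0.165), and Eif2s3y had 70.3, 68.5 and 73.0 CPM under the KspCre Tfam f/f label, against 77.7, 74.8 and 95.4 CPM under the Tfam f/f label (adjusted p = 0.134). Neither passed with all libraries. Without replicate 2 of the Tfam f/f label, Eif2s3x was called as higher (adjusted p = 0.0148), while with library totals its log2 fold change was -0.21.

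The eIF1 and eIF1A pairs, which act in scanning, showed unequal changes of related genes. Eif1a was 1.54-fold lower, at 40.5 ± 0.772 CPM under the KspCre Tfam f/f label and 62.2 ± 8.98 CPM under the Tfam f/f label (SD, n = 3 each, adjusted p = 0.0047). Its X-linked relative Eif1ax was 1.27-fold higher, at 82.5 ± 1.28 CPM under the KspCre Tfam f/f label and 65.2 ± 9.05 CPM under the Tfam f/f label (adjusted p = 0.0409), though its sign turned with library totals. The share of Eif1a in the pair per kilobase was 38.1%, 38.2% and 38.5% under the KspCre Tfam f/f label, against 53.3%, 49.7% and 60.8% under the Tfam f/f label. Likewise Eif1b was 1.26-fold higher (adjusted p = 0.0302, sign turned with library totals), while the more abundant Eif1 had 266 ± 6.20 CPM under the KspCre Tfam f/f label and 337 ± 57.1 CPM under the Tfam f/f label and did not pass (adjusted p = 0.11).

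Eif5, the GTPase activator of eIF2, had 385, 358 and 338 CPM under the KspCre Tfam f/f label, against 316, 444 and 319 CPM under the Tfam f/f label, which overlap. Eif5b, which joins the subunits, Eif2a and Eif2d, which serve alternative initiator delivery, also did not pass, with log2 fold changes of -0.06, -0.18 and -0.21. In the class of 12, 2 were higher (16.7%), 2 were lower (16.7%) and 8 did not pass. These shares are below those of all tested genes, 21.3% higher and 24.9% lower. The Eif1ax call was lost without any one of replicates 1 to 3 of the KspCre Tfam f/f label or replicate 1 or 3 of the Tfam f/f label (adjusted p 0.0748 to 0.119), and that of Eif1b without any of those except replicate 1 of the Tfam f/f label (0.0536 to 0.111).

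The 5 subunit genes of eIF2B, the exchange factor that recharges eIF2, were lower in part. Of these, 2 (40%) were called lower, where 24.9% of all tested genes were. Eif2b3 was lower by a log2 fold change of -0.58 (14.9 ± 0.698 CPM under the KspCre Tfam f/f label and 22.3 ± 3.16 CPM under the Tfam f/f label, SD, n = 3 each, adjusted p = 0.0094) and Eif2b4 1.26-fold lower (adjusted p = 0.0132). The most abundant, the catalytic Eif2b5, had 64.0, 66.5 and 64.2 CPM under the KspCre Tfam f/f label, against 80.3, 70.3 and 72.4 CPM under the Tfam f/f label, without overlap but with an adjusted p of 0.105. Eif2b2 (adjusted p = 0.0787) and Eif2b1 (0.997) did not pass. The Eif2b4 call was lost without any one of replicates 1 to 3 of the KspCre Tfam f/f label (adjusted p 0.054 to 0.0789), and Eif2b2 was called without replicate 2 of the Tfam f/f label (0.0356).

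The eIF3 complex, the largest initiation factor and the platform on the small ribosomal subunit, was lower across most subunits. Of 14 genes, 11 were lower (78.6%, against 24.9% of all tested genes) and 3 did not pass, with a median log2 fold change of -0.43. Eif3c (ENSMUSG00000030738.11, chromosome 7, 126546455 to 126566411), a core subunit, had 206, 214 and 208 CPM under the KspCre Tfam f/f label, against 453, 415 and 443 CPM under the Tfam f/f label. The groups were far apart and tight within themselves, and Eif3c was 2.09-fold lower (log2 fold change -1.06, SE 0.13, adjusted p = 0.000949).

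Eif3f, whose promoter is shown above, was 1.85-fold lower, at 93.7 ± 3.64 CPM under the KspCre Tfam f/f label and 174 ± 32.9 CPM under the Tfam f/f label (SD, n = 3 each, adjusted p = 0.00356). Eif3d, a subunit with cap-binding activity, was 1.71-fold lower (adjusted p = 0.0031), but 43.3% of its exon length overlaps a gene on the other strand and its counts are uncertain. Eif3g was 1.59-fold and Eif3l 1.43-fold lower. The other lower subunits, Eif3b, Eif3e, Eif3h, Eif3i, Eif3k and Eif3m, changed by 1.22-fold to 1.38-fold. Eif3a, the scaffold subunit, had 306, 305 and 308 CPM under the KspCre Tfam f/f label, against 338, 390 and 385 CPM under the Tfam f/f label, without overlap (adjusted p = 0.121).

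Eif3j1, the loosely bound subunit, had 52.1, 49.0 and 52.2 CPM under the KspCre Tfam f/f label, against 35.8, 48.1 and 41.0 CPM under the Tfam f/f label, and so lay on the other side of its partners without passing (log2 fold change 0.29, adjusted p = 0.0733, and -0.13 with library totals). Its near-copy Eif3j2, with 84.0% of its 100-base stretches repeated in other transcripts, had 0.572 to 1.18 CPM over the 6 libraries. The calls of Eif3b, Eif3e, Eif3h, Eif3k and Eif3m were lost without any one of replicates 1 to 3 of the KspCre Tfam f/f label or replicate 1 of the Tfam f/f label (adjusted p 0.0558 to 0.182). That of Eif3i was lost without any one of replicates 1 to 3 of the KspCre Tfam f/f label (0.0716 to 0.0825) and that of Eif3l without replicate 1 or 3 (0.0557 and 0.0594), while Eif3j1 was called as higher without replicate 2 of the Tfam f/f label (0.00618).

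**Figure D3:**
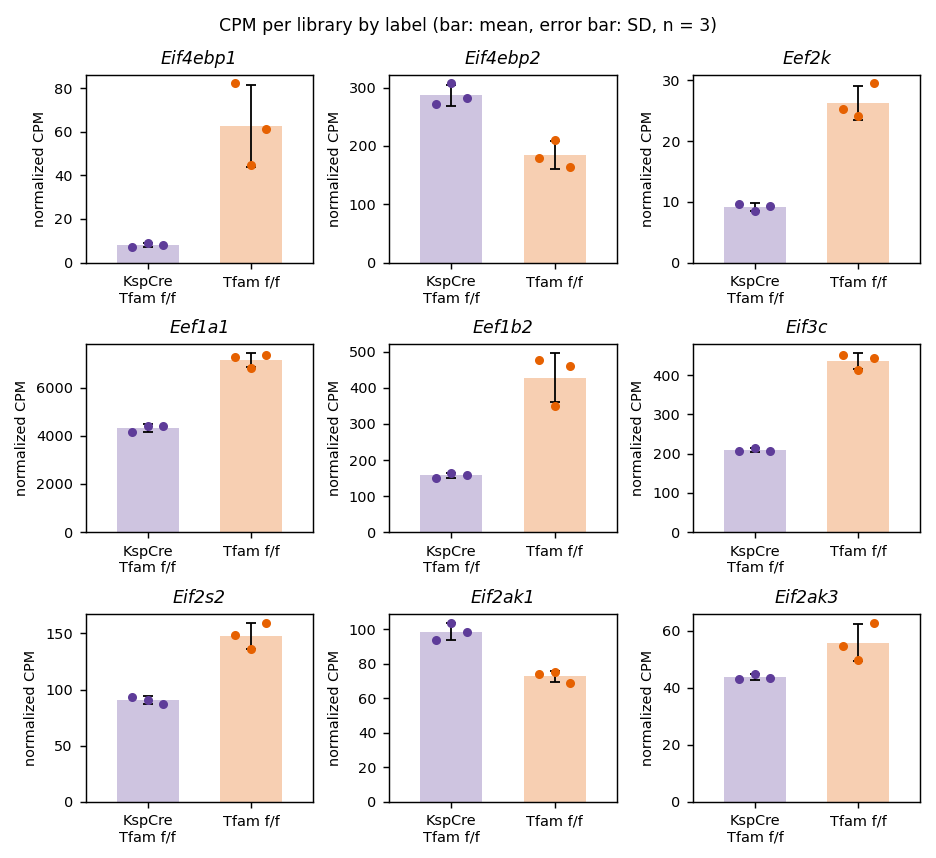
CPM of 9 members in each library (points), with the mean (bar) and SD (error bar, n = 3) for libraries labelled KspCre Tfam f/f on the left and Tfam f/f on the right, each panel on its own axis from 0. In all 9 panels the groups do not overlap, with Eif4ebp2 and Eif2ak1 higher on the left and the other 7 lower there, Eef1a1 among them without passing the test. The panels were picked as examples, and no member whose groups overlap is shown. Of all tested genes, 29.8% had the KspCre Tfam f/f label above without overlap and 32.1% had it below. With library totals Eif2ak1 has a log2 fold change of 0.02 and Eif4ebp2 of 0.22.

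The eIF4 genes, for cap binding, scaffolding and unwinding, mostly did not pass. Of 12, 2 were higher (16.7%), 1 was lower (8.33%) and 9 did not pass, with a median log2 fold change of -0.03. Both shares lie below the 21.3% higher and 24.9% lower of all tested genes. Eif4g2 (ENSMUSG00000005610.17, chromosome 7, 111067750 to 111083030), the scaffold DAP5 that lacks the eIF4E site, had 1140, 1153 and 1189 CPM under the KspCre Tfam f/f label, against 702, 943 and 700 CPM under the Tfam f/f label. It was 1.49-fold higher (log2 fold change 0.57, SE 0.19, adjusted p = 0.0444).

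Its relatives did not pass, and with library totals both turned to a log2 fold change of -0.16, where that of Eif4g2 was 0.15. Eif4g1, the main scaffold, had 476, 497 and 486 CPM under the KspCre Tfam f/f label, against 409, 435 and 368 CPM under the Tfam f/f label (adjusted p = 0.159), and Eif4g3 had a log2 fold change of 0.27 (adjusted p = 0.116). Eif4e, which binds the cap, had 75.6, 78.8 and 77.5 CPM under the KspCre Tfam f/f label, against 58.8, 68.1 and 59.7 CPM under the Tfam f/f label. It was 1.24-fold higher (adjusted p = 0.0264), with a sign that turned with library totals. The related Eif4e2 and Eif4e3 did not pass (log2 fold changes 0.03 and -0.09).

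Eif4a1 (ENSMUSG00000059796.16, chromosome 11, 69666936 to 69672423), the main helicase, had 280, 291 and 284 CPM under the KspCre Tfam f/f label, against 412, 350 and 458 CPM under the Tfam f/f label and was 1.43-fold lower (adjusted p = 0.0247). Eif4a2, its close relative, had 434, 402 and 392 CPM under the KspCre Tfam f/f label, against 313, 410 and 348 CPM under the Tfam f/f label, which overlap (log2 fold change 0.20, and -0.23 with library totals). Per kilobase, Eif4a1 made up 44.2%, 47.1% and 47.1% of the pair under the KspCre Tfam f/f label, against 61.9%, 51.3% and 61.9% under the Tfam f/f label. Eif4a1 shares 38.3% of its 100-base stretches with other transcripts, chiefly Eif4a-ps4, so the counts of Eif4a1 are uncertain. Eif4a-ps4 held 328, 347 and 213 raw counts under the KspCre Tfam f/f label, against 321, 402 and 300 under the Tfam f/f label. These raw counts are not scaled for the unequal depth of the libraries and do not compare the groups.

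Eif4a3, of the exon junction complex, Eif4b and Eif4h, which help the helicase, and Eif4enif1, which carries eIF4E into the nucleus, did not pass, with log2 fold changes of -0.27 to -0.09. The Eif4g2, Eif4e and Eif4a1 calls were lost without any one of replicates 1 to 3 of the KspCre Tfam f/f label or replicate 1 of the Tfam f/f label (adjusted p 0.065 to 0.144). Without replicate 2 of the Tfam f/f label, Eif4a3 was called as lower and Eif4g3 as higher (0.0108 and 0.0461).

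**Figure D4:**
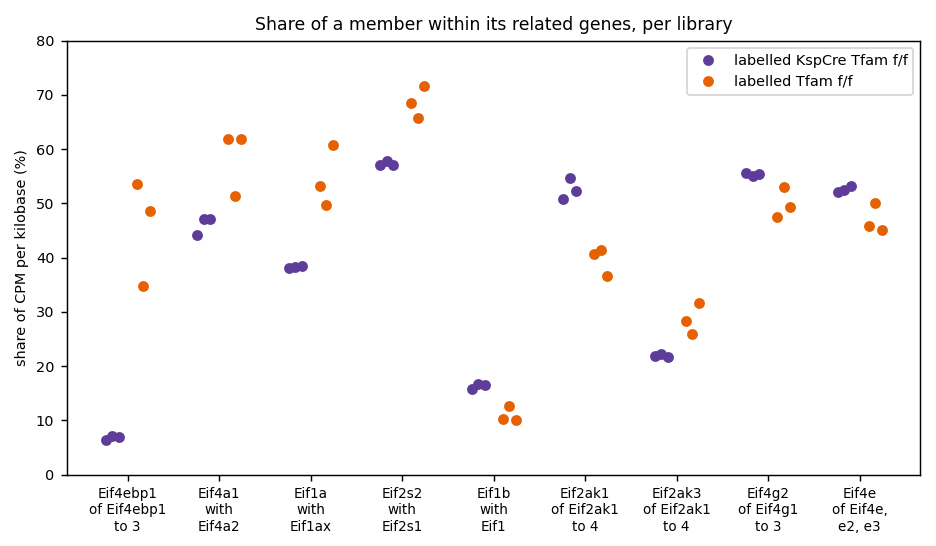
Share of CPM per kilobase of exon that a member takes within its related genes or subunits (y axis, %), 1 point per library, libraries labelled KspCre Tfam f/f left of those labelled Tfam f/f. The points do not overlap for any of the 9 shares shown, and Eif4ebp1 differs most, with 6.40% to 7.05% under the KspCre Tfam f/f label, against 34.7% to 53.5% under the Tfam f/f label. Such shares do not depend on the scaling of libraries.

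Elongation factors held the most abundant transcripts, and those of the eEF1B exchange complex were lower. Of 8 genes, including eIF5A, 4 were lower (50%, against 24.9% of all tested genes) and 4 did not pass. Eef1a1 (ENSMUSG00000037742.14, chromosome 9, 78478449 to 78489151), which delivers aminoacyl-tRNA, had 4150, 4415 and 4418 CPM under the KspCre Tfam f/f label, against 7267, 6817 and 7356 CPM under the Tfam f/f label. The groups were far apart at a 1.65-fold lower mean, yet the call was narrowly missed (log2 fold change -0.72, SE 0.26, adjusted p = 0.0512). It was called by DESeq2 (adjusted p = 1.64e-11) and limma voom (0.018), with library totals and under both other filters on low counts (0.00428 to 0.0416), and without replicate 2 or 3 of the Tfam f/f label (0.0374 and 0.00338). It was not called with RLE factors, after thinning or with the replicate block (0.0594, 0.0554 and 0.159), or without any of the other 4 libraries (0.154 to 0.192), so 7 of 14 alternatives called it.

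Eef2, the translocase, had 1876, 2012 and 1976 CPM under the KspCre Tfam f/f label, against 2981, 2803 and 2847 CPM under the Tfam f/f label, and stood likewise at an adjusted p of 0.0605. Of 14 alternatives 6 called it, namely DESeq2 (adjusted p = 4.96e-07), limma voom (0.0254), library totals (0.00368), the stricter filter (0.049) and leaving out replicate 2 or 3 of the Tfam f/f label (0.048 and 0.00569), while the other 8 gave adjusted p-values of 0.0565 to 0.216. Per kilobase these 2 genes ranked first and second among all members in both groups, at 1736 and 588 CPM per kilobase under the KspCre Tfam f/f label and 2867 and 866 under the Tfam f/f label. Counts of Eef1a1 are uncertain where copies match, as 23.0% of its 100-base stretches recur in other transcripts.

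The exchange factors that reload eEF1A were called. Eef1b2 (ENSMUSG00000025967.16, chromosome 1, 63176825 to 63180486) had 149, 165 and 158 CPM under the KspCre Tfam f/f label, against 476, 351 and 459 CPM under the Tfam f/f label. It was 2.73-fold lower (log2 fold change -1.45, SE 0.16, adjusted p = 0.000694), the most of any elongation factor. Eef1g was 1.77-fold lower (262 ± 2.37 CPM under the KspCre Tfam f/f label and 464 ± 44.6 CPM under the Tfam f/f label, SD, n = 3 each, adjusted p = 0.00339), with 40.7% of its 100-base stretches found in other transcripts. Eef1d was 1.37-fold lower (adjusted p = 0.0112), a call that was lost without any one of replicates 1 to 3 of the KspCre Tfam f/f label (0.0504 to 0.0608). Eef1e1, a scaffold of the tRNA synthetase complex, had 12.1 ± 0.480 CPM under the KspCre Tfam f/f label and 13.2 ± 0.442 CPM under the Tfam f/f label and did not pass (adjusted p = 0.352).

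The hypusine-carrying factor eIF5A is encoded by a pair of genes. Eif5a had 355, 378 and 364 CPM under the KspCre Tfam f/f label, against 406, 347 and 334 CPM under the Tfam f/f label, which overlap (log2 fold change 0.01, SE 0.14, adjusted p = 0.945). The much rarer Eif5a2 was 1.77-fold lower (9.39 ± 1.27 CPM under the KspCre Tfam f/f label and 16.7 ± 3.07 CPM under the Tfam f/f label, SD, n = 3 each, adjusted p = 0.00738).

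The kinase that brakes elongation had the second largest change of all members. Eef2k (ENSMUSG00000035064.17, chromosome 7, 120842831 to 120907450) had 9.63, 8.46 and 9.31 CPM under the KspCre Tfam f/f label, against 25.4, 24.2 and 29.5 CPM under the Tfam f/f label. It was 2.88-fold lower (log2 fold change -1.53, SE 0.12, adjusted p = 0.000194), and its log2 fold change with library totals was -1.96. Eef1akmt1, a lysine methyltransferase of eEF1A, had 12.9, 13.8 and 14.1 CPM under the KspCre Tfam f/f label, against 10.8, 10.1 and 8.18 CPM under the Tfam f/f label and was 1.40-fold higher (adjusted p = 0.0227). Eef2kmt, which methylates eEF2, had 21.2, 24.9 and 23.8 CPM under the KspCre Tfam f/f label, against 32.2, 24.8 and 30.6 CPM under the Tfam f/f label (adjusted p = 0.0665), and Eef1akmt4, another eEF1A methyltransferase, had 1.34 to 2.64 CPM (0.601). The Eef1akmt1 call was lost without any one of replicates 1 to 3 of the KspCre Tfam f/f label (0.0576 to 0.084), and Eef2kmt was called as lower without replicate 2 of the Tfam f/f label (0.0142).

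Of the remaining members, Eif6, which keeps the ribosomal subunits apart, had 55.4, 66.4 and 59.4 CPM under the KspCre Tfam f/f label, against 91.0, 66.7 and 86.5 CPM under the Tfam f/f label and was 1.35-fold lower (adjusted p = 0.0354). Its call was lost without any one library except replicate 2 of the Tfam f/f label (0.0608 to 0.137). Eif1ad, which resembles eIF1A and acts in ribosome maturation in human cells, was 1.54-fold lower (32.2 ± 1.22 CPM under the KspCre Tfam f/f label and 49.7 ± 4.48 CPM under the Tfam f/f label, SD, n = 3 each, adjusted p = 0.00237). It shares 15.3% of its exon length with Banf1 on the other strand. Exons on the other strand also cover 23.0% of Eef2kmt, 19.0% of Eif3j1, 16.8% of Eif5b, 12.7% of Eif1b and 11.6% of Eif2ak1. Exons on the same strand cover 30.7% of Eef1akmt4 and 14.8% of Eif4e3. Of the 100-base stretches, 44.2% of Eif3j1, 33.7% of Eif2s3x, 25.8% of Eef1akmt4 and 14.3% of Eif2s2 recur in other transcripts. The counts of these genes are uncertain in part, and not all smaller overlaps are listed.

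Lists of other genes of translation control are given beside the shares over all tested genes, 21.3% higher and 24.9% lower, and most counts shift with library totals. A list of 24 genes covered cap-binding control and the mTORC1 pathway, which phosphorylates 4E-binding proteins. Of these, 3 were higher, 6 were lower and 15 did not pass, with a median log2 fold change of 0.05. With library totals 1 was higher and 16 were lower, at a median of -0.38. Rragd, a GTPase of amino acid sensing, was 2.26-fold lower (adjusted p = 0.000558), Mknk1, a kinase of eIF4E, 1.85-fold lower and Sesn2, an inhibitor of the pathway, 1.83-fold lower. The 3 higher genes, named after their values were seen, were Mtor at 2.88-fold, Rheb and Sesn1, and the last 2 lost their calls without any one of the KspCre Tfam f/f replicates (adjusted p 0.0794 to 0.132) and turned in sign with library totals. Sesn1 also lost its call without replicate 1 of the Tfam f/f label (0.0579). Among 10 poly(A)-binding proteins and partners, 4 were higher, 2 lower and 4 did not pass, against 0 higher and 3 lower with library totals. Pabpc4 was 2.44-fold lower (adjusted p = 0.000304), while Paip2, which holds poly(A)-binding protein back, was 1.43-fold and Paip1, which stimulates initiation, 1.32-fold higher, with log2 fold changes of 0.09 and -0.02 with library totals. The Paip1 call was narrowly lost without replicate 1 of the KspCre Tfam f/f label (adjusted p = 0.0502).

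In the list of 12 genes that set eIF2 phosphorylation beside the kinases, 2 were higher, 3 lower and 7 did not pass, and with library totals 1 was higher and 6 were lower. Ppp1r15a, which encodes GADD34 and returns eIF2 to its active form, had 19.6, 15.7 and 14.4 CPM under the KspCre Tfam f/f label, against 76.1, 48.5 and 98.5 CPM under the Tfam f/f label (4.48-fold lower, adjusted p = 0.00104). Trib3 was 219-fold lower, and Dnajc3, the PERK inhibitor p58IPK, 2.02-fold higher. Of 23 tested ATF4-linked transcripts, 19 were lower, 3 (Vldlr, Ddit4 and Cebpb) did not pass and 1 (Shmt2) was higher, and their median log2 fold change was -3.57 (1 higher, 22 lower and -4.02 with library totals). Mthfd2 was 19.0-fold and Nupr1 21.5-fold lower, and Atf5 had a log2 fold change of -4.09. Trib3 and Ppp1r15a are in both lists, and Sesn2 and Ddit4 are in the ATF4-linked list and in that with the mTORC1 pathway.

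Of 11 genes for termination, recycling and re-initiation, 2 were higher, Gspt1 (the release factor eRF3a, 1.67-fold) and Mcts1 (re-initiation, 1.43-fold), 2 were lower, with Gspt2 at 2.22-fold, and 7 did not pass. Both shares lie below those of all tested genes, and with library totals 1 was higher and 7 were lower, with Mcts1 at a log2 fold change of 0.09 (adjusted p = 0.444). Denr, which works with Mcts1, was the other lower one, named after its value was seen and lost without any one library except replicate 2 of the Tfam f/f label (0.0742 to 0.157). Of 9 enzymes that make the hypusine of eIF5A or the diphthamide of eEF2, 4 were lower and 5 did not pass, and with library totals 7 were lower. Dph5 and Dph7 were both 1.61-fold lower, and the hypusine enzyme Dhps 1.41-fold lower, a call lost without replicate 1 or 2 of the KspCre Tfam f/f label (adjusted p = 0.0595 and 0.0585).

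Among 13 genes for translation in the mitochondrion, which include the tRNA synthetase gene Tars2, 6 were higher and 7 did not pass. Their median log2 fold change was 0.29, which turned to -0.13 with library totals, where 2 were higher and 2 lower. The mitochondrial elongation factor Gfm1 and recycling factor Gfm2 were 1.66-fold and 1.70-fold higher (adjusted p = 0.00442 and 0.00225), and the initiation factor Mtif3 1.47-fold higher (0.0101). The other 3 higher ones were Tufm, Mtrf1l and Mtfmt, whose calls were lost without replicate 1 of the KspCre Tfam f/f label (0.0812, 0.0839 and 0.0545), among other libraries. In a list of 6 genes for selenoprotein elongation, 3 were higher and 3 did not pass, and with library totals 2 were higher and 1 was lower. Sephs2, which makes the selenium donor, and Sepsecs, which charges the tRNA, were 2.27-fold and 2.24-fold higher, and Secisbp2 was 1.20-fold higher, with a sign that turned with library totals and a call lost without any one of replicates 1 to 3 of the KspCre Tfam f/f label (0.0854 to 0.103).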

How the data were processed

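Libraries were strand-specific (dUTP) and poly(A)-selected, per the labels' protocols. The submitters' processing notes name build mm10 and, with no order, HTSeq 0.11.0, STAR 2.4.1d, Trim Galore and FastQC. Neither the strand option used in counting nor the annotation release was found in these sources, so members that overlap another gene are uncertain. The deposited values are raw counts per gene, with no normalization by the authors. The 5 summary lines, 16.0% to 20.4% of each file's sum, were left out. Counts were tested with edgeR 4.0.16 (filterByExpr, minimum count 10 and minimum total 15, TMM factors, quasi-likelihood test with robust estimation), with Benjamini-Hochberg adjustment over 17308 genes. A log2 fold change is the KspCre Tfam f/f label minus the Tfam f/f label. The SE is the size of that value over the square root of F. The procedure was also run on simulated counts that had the same trend of spread in both groups. That run does not cover the unequal spread of these groups. Alternatives were DESeq2 1.42.0, limma voom 3.58.1, other scaling and filters, thinning, a replicate block and each library left out. Within each group, libraries varied beyond counting error. Chi-square per degree of freedom was 6.57 to 10.8 under the KspCre Tfam f/f label and 57.5 to 149 under the Tfam f/f label.

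Exon lengths, positions and overlaps were read from GENCODE M21, on that build, in which all 64 members were found without their version suffix. Exon length is the merged length of all annotated exons of a gene, not that of the expressed mRNA. Levels per kilobase and shares between genes therefore depend on which transcripts are annotated. Stretches of 100 bases were compared with M21 transcripts only. All members were named, and values per library were given for the Eif2ak and Eif4ebp genes, the 4 largest called changes per direction, the most abundant member per class, a fixed set of core factors and some others. In the other lists, up to 3 called genes of smallest p were named. The members and lists were chosen with earlier results of these data known. Marker lists of other cell types were also counted, beside the 21.3% higher and 24.9% lower of all tested genes. Of 10 proximal tubule markers 8 were higher (6 with library totals), and of 5 thick ascending limb markers 3 were. The calls of Aqp1, Cubn, Lrp2, Slc22a6, Slc27a2 and Slc34a1 were lost without any one of replicates 1 to 3 of the KspCre Tfam f/f label (adjusted p 0.053 to 0.0905). Of 8 collecting duct markers 3 were higher and 3 lower. Of 6 podocyte markers 3 were higher (1 higher and 1 lower with library totals), and of 6 endothelial markers 0 were called. Of 8 fibroblast and mural markers 1 was higher and 3 lower (1 and 6 with library totals). Of 9 tested T and B cell markers 3 were lower (7 with library totals). Of 12 macrophage markers 11 were lower, and all 8 proliferation and all 8 injury markers were. Of 4 tested adipocyte and adrenal markers 1 was lower (2 with library totals). Of 4 tested markers of tissues that express Eef1a2, 2 were higher and 2 lower (1 and 2 with library totals).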

Additional observations from a re-analysis of the deposited data

How the results depend on the processing

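With library totals in place of TMM factors, 1680 genes were higher and 8519 lower (3690 and 4310 with TMM, so that higher calls were 16.5% of all calls in place of 46.1%), and of the members 0 were higher and 48 lower, with a median log2 fold change of -0.71. The members with a call under either scaling whose sign turned there were Eif1ax (-0.08), Eif1b (-0.09), Eif4e (-0.11), Eif4e2 (-0.40), Eif5 (-0.42) and Eif5a (-0.41). Eif2s3x, Eif3j1, Eif3j2, Eif4a2, Eif4ebp3, Eif4g1 and Eif4g3, with no call under either, also turned (-0.37 to -0.13). This follows the shift of all genes by library totals. RLE factors, both filters, thinning, DESeq2 and limma voom kept each count within 1.5 times, with 5 to 9 members higher and 24 to 29 lower. Leaving out 1 library gave 2 to 10 members higher, 13 to 31 lower and medians of -0.29 to -0.24, with 2276 to 4652 genes higher and 2822 to 4942 lower overall.

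The replicate numbers are shared by the groups, but same-numbered libraries did not deviate together (correlation of deviations -0.219, -0.072 and -0.065). Each library correlated best with another number. Deviations from a group mean of few libraries are tied to each other, so these correlations cannot decide whether the numbers pair libraries. With the number as a block, 2 members were higher and 15 lower, and 3227 genes were higher and 3586 lower overall. Thinning every library to the 19024208 counts of the shallowest gave 6 members higher and 24 lower.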
